A study of Drosophila melanogaster with 2 samples.

Results

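The oldest gcm neuroblasts (NBs) of the Drosophila larval medulla were taken here as the sorted NBs that held gcm at a high level and little or no tll. A cell was a member if gcm reached at least 500 CPM (a gene's UMIs, or unique molecular identifiers, per 1000000 UMIs of the cell) and tll stayed under 100 CPM. The rule chose 250 of the 2659 kept cells, 29 of 516 in experiment 1 and 221 of 2143 in experiment 2. They were compared with the 2409 other kept cells, and with the 2 groups of late NBs closest to them: cells with both genes (gcm at least 500 CPM and tll at least 100 CPM, 20 and 127 cells in experiments 1 and 2) and tll-stage cells (tll at least 500 CPM and gcm under 100 CPM, 3 and 11 cells). Because there were so few tll-stage cells, a wider tll stage (tll at least 100 CPM and gcm under 100 CPM, 20 and 52 cells) was added after the data had been seen.

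The medulla is the largest neuropil of the fly optic lobe. Its NBs are made from a sheet of neuroepithelium by a moving wave of differentiation, and each NB then passes through a fixed series of temporal transcription factors (TTFs), so that neurons born early and late in a lineage differ. Near the end of the series Tll comes on, and after it Gcm (Glial cells missing), a zinc-finger factor that directs cells to the glial fate. At this last stage the NBs change from making neurons to making glia and leave the cell cycle. Dap (Dacapo), a p21-type inhibitor of the CycE and Cdk2 kinase, and Nerfin-1, a zinc-finger factor that keeps neurons differentiated, served as markers here.

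The 2 libraries are replicates of 1 condition. Each came from the brains of 120 untreated wandering larvae of the last instar, grown at 25 °C. All larvae carried the reporter E(spl)mγGFP together with SoxNGal4 and UAS-RedStinger over the balancer TM6B. Brains were dissociated, and cells with both the green reporter of the Notch target E(spl)mγ, which labels NBs, and the red reporter driven by SoxNGal4, which labels the medulla, were sorted and put through the 10x Genomics Chromium platform. A sort of this kind can also hold progeny that have inherited reporter protein, and the larvae of an experiment were pooled, so there is no separate animal to count. Kept cells had at least 1 UMI of dpn (Deadpan, a factor of all NBs), under 10% of UMIs from mitochondrial genes and at least 5000 UMIs, with the 5 deepest cells removed. The deposited libraries held 42618478 and 116712060 UMIs in 6548 and 5343 cells. No member shared its barcode with a kept cell of the other library.

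The member cells were shallower than the rest. Their median was 14668 UMIs and 2488 genes per cell in experiment 1 and 16549 UMIs and 2821 genes in experiment 2, against 21335 UMIs and 3196 genes, and 45154 UMIs and 4378 genes, in the other kept cells. Less RNA in a cell and a poorer capture of it cannot be told apart in these data. All levels below are therefore relative to the UMIs of the same cells, and shares of cells with a UMI were taken from 5000 UMIs drawn at random from each cell. The mitochondrial share was alike, with medians of 4.57% and 4.95% in members and 4.40% and 4.94% in the other kept cells.

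The values of gcm and tll chose the members and are given as a description. Among members, gcm ran from 545 to 3450 CPM with a median of 1581 CPM in experiment 1, and from 505 to 4218 CPM with a median of 1445 CPM in experiment 2. No UMI of tll was found in 23 of the 29 and in 165 of the 221 members. Few cells lay close to the gcm threshold: 1 and 12 members had gcm between 500 and 600 CPM, while 2 and 6 cells with little tll lay just below it, at a median gcm of 455 and 457 CPM. More lay close to the tll threshold, with 3 and 47 members at 50 to 100 CPM of tll and 8 and 51 cells just outside it at 100 to 200 CPM. At these depths 100 CPM is only a few UMIs, so this border is a soft one. The members made up 5.62% of kept cells in experiment 1 (exact 95% binomial interval 3.80 to 7.97%) and 10.3% in experiment 2 (9.06 to 11.7%), and these intervals cover counting error only.

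**Figure D1:**
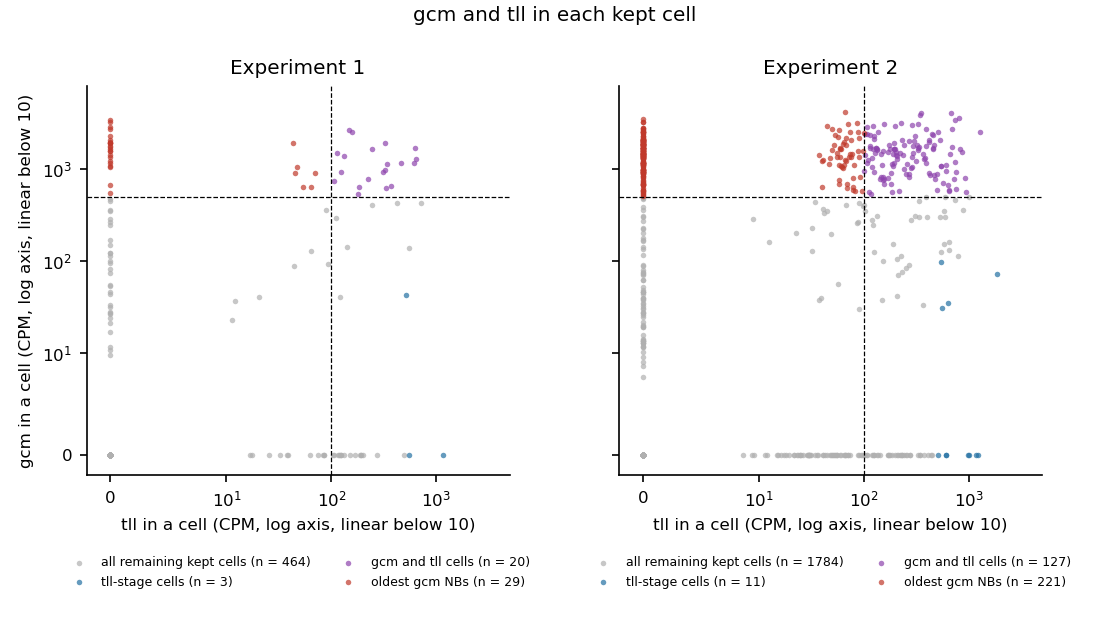
The gcm level of each kept cell (vertical axis, CPM) against its tll level (horizontal axis, CPM) in both experiments, on log axes that are linear below 10 CPM. Dashed lines mark the thresholds of 500 CPM for gcm and 100 CPM for tll; the 29 and 221 oldest gcm NBs (red) fill the upper left corner, most of them at 0 CPM of tll, and run without a gap into the cells with both genes (purple).

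Both markers of the stage were high in the members. In experiment 1, dap had a level of 2806 CPM over the summed UMIs of the members and 78.4 CPM over the other kept cells, and in experiment 2 of 2301 and 68.1 CPM. For nerfin-1 the levels were 1946 against 60.5 CPM and 1384 against 36.0 CPM. The 2 genes were therefore high in members of both experiments, and the rule had used neither. The study had named both for the last stage from these same libraries, besides its stainings, so this is no independent check. It found Nerfin-1 protein mostly in maturing neurons, so this marker is not one of NBs alone. In edgeR's quasi-likelihood test on the UMIs summed per experiment and group, with Benjamini-Hochberg adjustment over all 7109 genes tested, dap rose by 5.16 ± 0.08 (SE) and nerfin-1 by 5.19 ± 0.09 on the log2 scale (n = 2 libraries). The p-values from these sums measure only the spread between the 2 libraries.

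Single members were also mostly alike. After thinning, dap was found in 29 of 29 members of experiment 1 and in 210 of 221 of experiment 2 (exact 95% interval 91.3 to 97.5%), against 18.7% and 19.7% of the other kept cells. All UMIs included, dap was in 100% and 99.1% of members and in 40.5% and 49.0% of the others. UMIs of nerfin-1 were in 29 of 29 and 209 of 221 members (94.6%, 90.7 to 97.2%), against 17.2% and 10.3% of the other cells, and without thinning in 100% and 98.2% against 28.7% and 17.2%. Both genes were found together in all 29 members of experiment 1 and in 200 of 221 in experiment 2, and neither in 2 of the 221. The middle 50% of members ran from 1737 to 3897 CPM of dap in experiment 1 and from 1260.3 to 3146 CPM in experiment 2, so the level of dap in single members was wide although nearly all held it.

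Within the members, dap was higher where gcm was higher. In experiment 1, dap was at 2143, 2889 and 3501 CPM in members with gcm from 500 to 1000, from 1000 to 2000 and above 2000 CPM, and in experiment 2 at 1828, 2365 and 2693 CPM. The neuronal RNA-binding protein gene elav had the same order over the 3 steps, with 3897, 4411 and 5467 CPM in experiment 1, while experiment 2 gave 3042, 3448 and 3684 CPM. CycE, the cyclin of S phase entry, had the opposite order, with 1014, 594 and 502 CPM and 452, 427 and 376 CPM. For nerfin-1 no such order was seen in experiment 1, with 1972, 1858 and 2204 CPM, while experiment 2 gave a rise, with 1154, 1451 and 1475 CPM. These are descriptions, since the 6, 17 and 6 members of experiment 1 and the 53, 125 and 43 of experiment 2 in the 3 steps share their library, and gcm is one of the genes that chose them.

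Against all other kept cells, 17.0% of the genes tested were called higher in the oldest gcm NBs (1209 genes at an adjusted p under 0.05) and 22.9% lower (1625 genes). The lists of genes below are read beside these shares, and the median log2 fold change over all genes tested was -0.08. Without the library as a block the counts fell to 333 and 624, and with DESeq2 to 658 and 673.

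Among genes of cell-cycle exit and differentiation, 10 of 12 tested rose and 1 fell. Besides dap and nerfin-1, elav rose by 2.04 ± 0.06 on the log2 scale, from 1095 to 4462 CPM in experiment 1 and from 869 to 3398 CPM in experiment 2. The pseudokinase gene trbl (Tribbles), which lowers the level of the mitotic phosphatase String, rose by 2.54 ± 0.17, and fzr (Fizzy-related), the activator of the anaphase-promoting complex that ends cycling, by 1.39 ± 0.16. The homeodomain factor gene pros (Prospero), which carries progeny out of self-renewal, was called higher at 0.40 ± 0.08, but its 2 experiments did not share the direction: members had 1362 against 1450.4 CPM in experiment 1 and 998 against 592 CPM in experiment 2. The BTB factor gene ttk rested on 2 members of experiment 2 with 20 and 32 UMIs, each of which also held 1 UMI of the glial gene repo. The gene jim, which fell in the test, was at 21.5 against 315 CPM in experiment 1 and 42.4 against 33.3 CPM in experiment 2. The count was 5 of 12 without the library block and 6 of 11 without cells above 2 times the median depth of their library.

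TTFs of the earlier stages were low in these cells. Of 14 tested after gcm and tll were left out, 13 fell and the median was -3.18 on the log2 scale. D (Dichaete), the Sox factor of the middle of the series, was at 7.18 and 2.65 CPM in members against 282 and 326 CPM in the other cells, and it fell by 6.62 ± 0.22, the most of all named genes. The forkhead gene slp2, at 47.9 and 41.4 against 327 and 377 CPM, and the Bar homeobox genes B-H1 (2.39 and 1.86 against 59.4 and 41.2 CPM) and B-H2 fell as well. The exception was scro, a homeobox gene of the late NBs, at 563 against 537 CPM and 415 against 540 CPM (-0.14 ± 0.09, edgeR adjusted p = 0.224). SoxN fell by 0.28 ± 0.10 and stayed at 275 and 315 CPM.

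NB genes did not move one way. Of 20 tested, 7 rose and 6 fell, and these counts were 3 and 1 without the library block and 3 and 3 after thinning. Among the 20 is dpn, which every kept cell had to hold, so its presence is no result. The NB factor genes wor and ase and the polarity gene par-6 were not called, with wor at 289.7 against 243 CPM in experiment 1 and 346 against 357 CPM in experiment 2. The adaptor gene mira (Miranda), which carries fate determinants into the daughter cell, was lower by 0.32 ± 0.09, and after thinning was found in 26 of 29 members of experiment 1 (89.7%) and 156 of 221 of experiment 2 (70.6%, exact interval 64.1 to 76.5%), against 85.0% and 87.5% of the other kept cells. The Notch targets klu and E(spl)mgamma-HLH fell by 0.42 ± 0.09 and 0.59 ± 0.09. Among genes of the asymmetric division machinery, insc (Inscuteable) rose by 1.72 ± 0.12, baz (Bazooka) by 1.05 ± 0.11 and numb, an inhibitor of Notch, by 0.93 ± 0.09, while aPKC, the kinase that works with Bazooka, fell by 0.62 ± 0.18 (45.5 against 59.9 CPM and 38.2 against 64.0 CPM). E(spl)m7-HLH and E(spl)m8-HLH were called higher, but in experiment 1 they were below the other cells (52.7 against 75.5 CPM and 146 against 167 CPM). Of 19 genes of the Notch pathway and its targets 8 rose and 6 fell (median 0.23). The receptor gene N rose by 0.26 ± 0.08, and its ligand gene Dl, the protease gene kuz, the ligase gene neur and the transcription factor gene Su(H) also rose. Without the library block 1 rose and 3 fell, and without the members holding repo or gcm2 UMIs 7 rose and 9 fell.

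**Figure D2:**
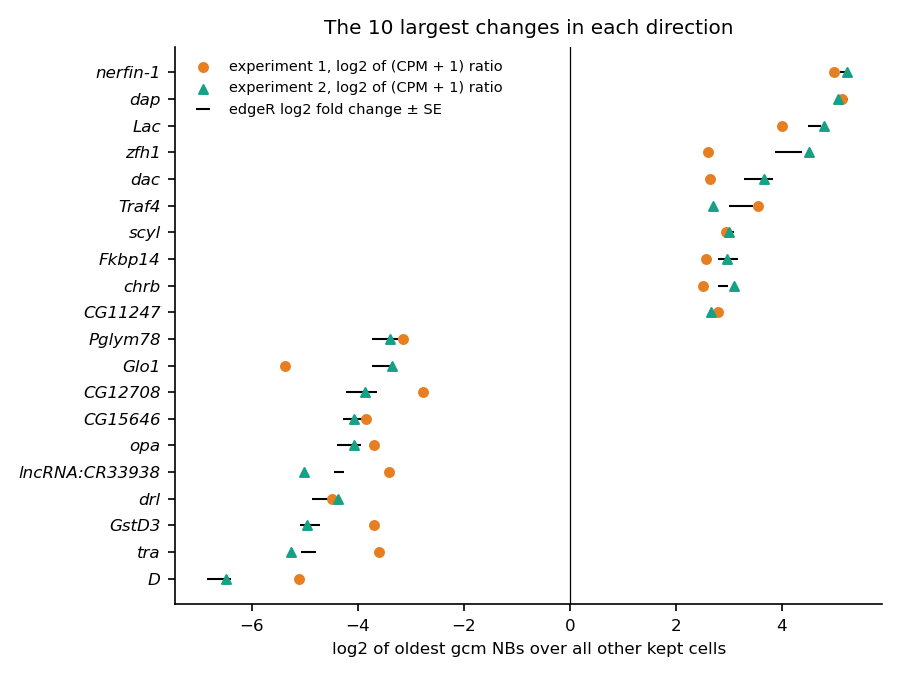
Log2 ratio of the oldest gcm NBs over all other kept cells for the 10 genes with the largest change in each direction, with the edgeR fold change and its SE (bars) and the ratio of each experiment (points, 1 CPM added). All 20 genes have the same direction in both experiments, but for several, zfh1, tra and lncRNA:CR33938 among them, the experiments lie further apart than the SE of the fit.

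The 20 genes with the largest changes, chosen by fold among called genes with at least 50 CPM and 1 direction in both experiments, kept their call and direction in every alternative fit. After nerfin-1 and dap came Lac (Lachesin, an immunoglobulin protein of septate junctions), which rose by 4.61 ± 0.12 from 20.6 to 345 CPM in experiment 1 and from 18.7 to 542 CPM in experiment 2. The zinc-finger homeobox gene zfh1 rose by 4.13 ± 0.25 and the retinal determination gene dac by 3.56 ± 0.27, but both were scarce, at 64.6 to 94.1 CPM in members. The most abundant of the set was scyl (Scylla), at 6310.2 against 814 CPM and 4689 against 582 CPM. With its relative chrb (Charybdis, 1027 against 180 CPM and 911 against 105 CPM), it encodes an inhibitor of TOR, the kinase that drives cell growth. The others that rose were Traf4, an adaptor of TNF receptors, Fkbp14, a protein-folding isomerase, and CG11247.

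Among the genes that fell most were tra (Transformer), the splicing factor of sex determination, at 45.5 against 565 CPM and 25.7 against 1017 CPM, and lncRNA:CR33938, a non-coding RNA, at 239 against 2549 CPM and 64.2 against 2107 CPM. The Wnt receptor gene drl (Derailed) was at 4.79 and 4.51 CPM against 130 and 114 CPM. D, the early TTF opa, GstD3 of the glutathione transferases (a family of near-identical copies, between which reads may be shared), the glyoxalase gene Glo1, the glycolytic mutase gene Pglym78, CG15646 and CG12708 complete the set.

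Genes of glycolysis were low as a group. All 11 enzymes tested fell, by a median of 2.66 on the log2 scale. Eno (enolase) was at 76.6 against 414 CPM in experiment 1 and 73.7 against 513 CPM in experiment 2, PyK (pyruvate kinase) at 14.4 against 143 CPM and 19.4 against 169 CPM, and Gapdh2 at 16.8 against 97.6 CPM and 17.2 against 148 CPM. Per cell, the summed level of the 13 glycolysis genes had a median of 157 CPM in members of experiment 1 (middle 50%, 108 to 264 CPM) against 905 CPM (530.2 to 1293 CPM) in the others, and of 156 CPM (68.6 to 266 CPM) against 946 CPM (569 to 1388 CPM) in experiment 2. The upper quartile of members thus lay under the lower quartile of the other kept cells in both experiments. Over 13 alternatives, 10 or 11 of the genes fell, 11 of them with all cells thinned and 10 without the deepest cells. The cells with gcm and tll were already low, at medians of 229 and 183 CPM, and so were the few tll-stage cells, at 129 and 370.5 CPM, whose median depth was 19809 and 20358 UMIs. Against the tll-stage cells 3 glycolysis genes could be tested, and they were not called.

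Other genes of growth fell less. Of 66 genes of oxidative phosphorylation, 48 fell and 2 rose (median -0.47), and of 83 cytoplasmic ribosomal protein genes, 61 fell and 2 rose (median -0.22). Of 33 proteasome subunit genes, 2 fell. The count of ribosomal protein genes that fell depended on the cells compared, with 12 of 83 among cells called G2/M, 13 after thinning and 4 without the deepest cells, and depth differed between the groups as given above. For oxidative phosphorylation these counts were 35 of 65, 24 of 63 and 30 of 65.

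**Figure D3:**
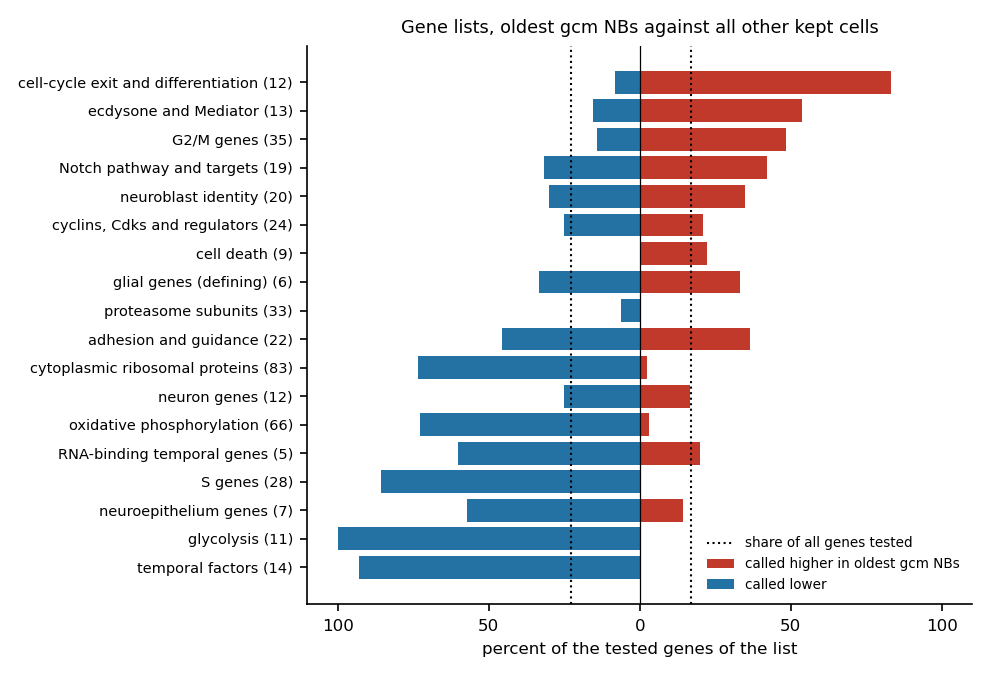
Share of the tested genes of each list (number in parentheses) that was called higher (red, right) or lower (blue, left) in the oldest gcm NBs than in all other kept cells. Dotted lines mark the shares of all genes tested, 17.0% higher and 22.9% lower. TTFs, glycolysis and S genes stand far to the left and genes of cell-cycle exit far to the right. The list of cell-cycle exit includes the markers dap and nerfin-1, and the lists were chosen with earlier results of these data known.

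Against all other kept cells, the RNAs of the cell cycle were shifted from S towards G2/M. Phases were scored with the 29 S and 37 G2/M genes that the study used, after thinning, and 24 of 29 members of experiment 1 (82.8%, exact interval 64.2 to 94.2%) and 141 of 221 of experiment 2 (63.8%, 57.1 to 70.1%) were called G2/M, against 28.5% and 26.2% of the other kept cells. S phase was called in 0 of 29 (0 to 11.9%) and 13 of 221 members (5.88%, 3.17 to 9.85%), against 42.7% and 45.2%. The cells with gcm and tll had much the same shares in G2/M, 85.0% and 64.6%, so this is not particular to the members. Such calls compare lists of RNAs and do not count dividing cells. Of the S genes themselves, 24 of 28 tested fell, with a median of -0.81. RnrS, a subunit of ribonucleotide reductase, was at 52.7 against 286 CPM and 108 against 357 CPM, and PCNA, the sliding clamp of DNA polymerase, at 297 against 705 CPM and 437 against 838 CPM. CycE fell by 1.01 ± 0.08 and E2f1, the factor that drives S genes, fell by 1.19 ± 0.07.

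Of 35 G2/M genes, 17 rose and 5 fell (median 0.32). The phosphatase gene stg (String), which opens mitosis, was at 1065 against 730.3 CPM and 1071 against 755 CPM, and Top2, the topoisomerase of condensing chromosomes, at 946 against 506 CPM and 798 against 444 CPM. The mitotic cyclin gene CycB was not called (287 against 272 CPM and 360 against 323 CPM). In G2/M cells alone 21 of 28 S genes were still lower, and 16 of 35 G2/M genes were still higher. Without the library block 12 of 28 S genes fell and 5 of 35 G2/M genes rose. Against the tll-stage cells 0 of 31 G2/M genes rose and 1 fell (median -0.01). Against the wider tll stage 3 of 34 rose and 2 fell, and against the cells with gcm and tll 0 of 31 were called.

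**Figure D4:**
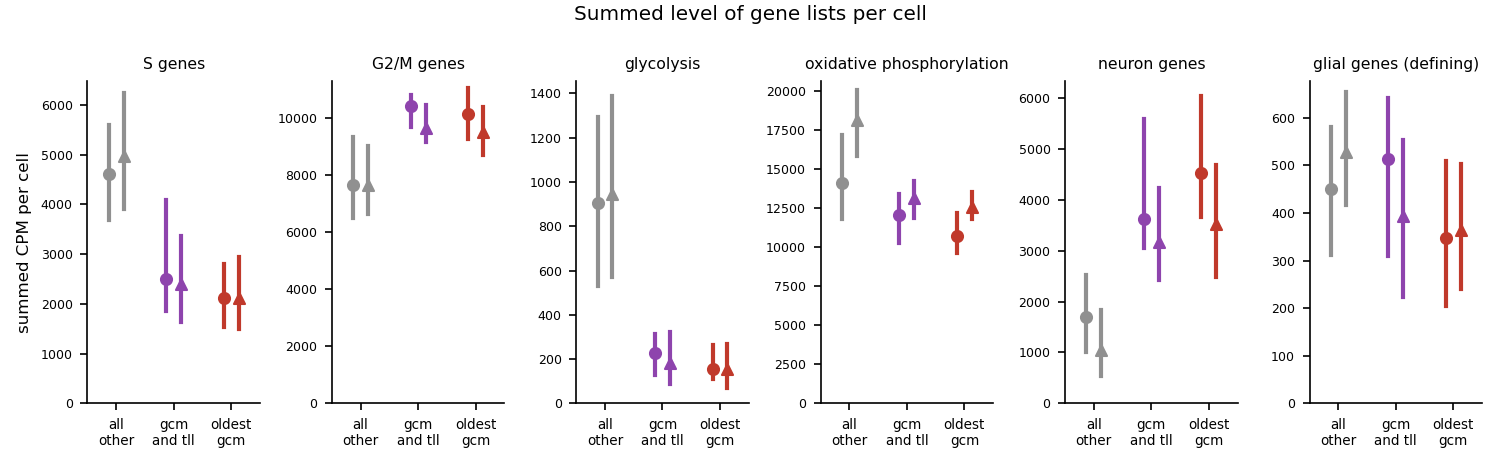
Summed CPM per cell of 6 gene lists in all other kept cells, cells with gcm and tll, and oldest gcm NBs, with the median (circle, experiment 1; triangle, experiment 2) and the middle 50% of cells (bar). S genes, glycolysis and oxidative phosphorylation are lower and G2/M genes higher in both groups with gcm; the summed neuron genes are carried by elav.

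Gcm is known to switch on glial genes. Among these NBs RNA of the glial gene repo was rare, while other glial genes differed in level and direction. The homeobox gene repo of lateral glia was found after thinning in 0 of 29 members of experiment 1 (exact interval 0 to 11.9%) and in 2 of 221 of experiment 2, and in 2 of 487 and 2 of 1922 other kept cells. With all UMIs it was in 0 and 4 members and in 6 and 6 of the other cells, which were deeper. Of the 10 defining glial genes, 6 could be tested: alrm and loco were called higher, and Eaat1 and nrv2 fell. The call of alrm rested on the pair of members described next, which held 12 and 42 of its 56 UMIs in experiment 2, and without the members holding repo or gcm2 UMIs alrm was at 0.557 against 0.247 CPM there and too low to be tested. In a wider list of 13 glial genes, 9 could be tested, and zfh1 also rose while pnt and Tret1-1 also fell. The regulator of G protein signalling loco, a known target of Gcm, was at 38.3 against 26.2 CPM and 39.0 against 26.0 CPM, and after thinning was in 17.2% and 18.1% of members and in 16.4% and 13.8% of the others. The summed level of the 10 genes per cell had medians of 347 and 364 CPM in members, below the 451 and 528 CPM of the other kept cells. Of these genes repo and alrm were at or near 0 in nearly all members, and the part of free RNA from glia in the rest was not tested.

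A pair of members stood apart from the others. Both were in experiment 2, with 10089 and 25779 UMIs, and had 33 and 30 UMIs of gcm with 5 and 6 UMIs of repo, 12 and 42 UMIs of the astrocyte gene alrm, 10 and 14 of pnt, and 1 UMI of dpn each. They had 0 UMIs of nerfin-1 and of pros, and 0 and 2 UMIs of dap. These cells meet the rule for gcm and tll, but they lacked the genes that nearly all other members held. The other 2 members with a repo UMI had 50 and 34 UMIs of dap and 87 and 60 UMIs of elav. They are also the 2 members with 20 and 32 UMIs of ttk. In all, 10 members of experiment 2 and 0 of experiment 1 held a UMI of repo or of gcm2, the relative of gcm. Without these 10 cells 13 of 14 TTFs and 24 of 28 S genes still fell, while 9 of 12 genes of cell-cycle exit rose.

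Neuron genes did not rise as a group. While elav rose as given, of the other 11 tested the calcium channel gene cac rose and fne, Rdl and VGlut fell. Genes of synaptic release such as nSyb (9.58 and 3.18 CPM), Syt1 (0 and 1.86 CPM) and brp (2.39 and 2.92 CPM) were near 0 in members. The markers of haemocytes were too low to be tested, and their summed level had a median of 0 CPM per cell.

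Against the late stages fewer genes were called. The late groups held fewer cells and fewer genes could be tested, so these shares do not compare the size of the differences. For nerfin-1 the change was 5.66 against the tll-stage cells and 5.19 against all other kept cells. The members and both late groups were fitted together, and against the tll-stage cells 2.01% of 3680 genes were called higher (74 genes) and 1.66% lower (61 genes). Here dap rose by 4.05 ± 0.17 (edgeR adjusted p = 1.15e-11), from 232 to 2806 CPM in experiment 1 and from 134 to 2301 CPM in experiment 2. The level of nerfin-1 rose by 5.66 ± 0.35 (adjusted p = 3.49e-09), and elav by 1.09 ± 0.10 (adjusted p = 1.45e-06). Lac had 0 UMIs in the tll-stage cells of both experiments, and with 3 UMIs per library as the floor it was at least 5.94-fold higher in experiment 1 and at least 45.9-fold higher in experiment 2. Fkbp14 and zfh1 also had 0 UMIs there, and were at least 1.32-fold and 1.28-fold higher in experiment 1 and at least 11.9-fold and 7.98-fold higher in experiment 2. The rise of dac (adjusted p = 0.0101) completes the 5 largest.

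Of the genes that fell against the tll stage, B-H1 was at 2.39 and 1.86 CPM against 58.0 and 55.1 CPM (adjusted p = 0.00463), and RnrS at 52.7 and 108 CPM against 251 and 563 CPM (adjusted p = 3.16e-07). CG9328, the zinc-finger gene ham and the checkpoint gene Claspin were the others of the 5 largest. E(spl)mgamma-HLH, whose protein marked the cells in the sort, fell by 1.69 ± 0.14, to 476 and 439.7 CPM from 1315 and 1625 CPM, and mira fell by 0.85 ± 0.15. Of 24 S genes 11 fell, and of the NB genes 5 of 17 fell and insc rose. These calls rest on 3 and 11 tll-stage cells: among G2/M cells alone, where experiment 1 had 1 tll-stage cell, ham and Claspin turned their direction, to 1.61 and 0.84, and were no longer called.

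With the wider tll stage, 6.36% of 5208 genes were called higher (331 genes) and 8.08% lower (421 genes). This group may be mixed. Of 12 TTFs tested against it 8 fell, with hth, dmrt99B, slp1 and slp2 of earlier stages among them. Of 5 neuroepithelium genes Ocho and Optix fell and shg rose. Which cells besides tll-stage NBs it held was not tested, so the differences below are not those of a step from tll to gcm alone. Here dap rose by 4.46 ± 0.13, nerfin-1 by 5.02 ± 0.18 and Lac by 4.56 ± 0.40, and scyl rose from 2172 to 6310.2 CPM and from 2180.0 to 4689 CPM. Of 18 genes of the Notch pathway and its targets 10 fell and 2 rose, with a median of -1.09, whereas against the fewer tll-stage cells 2 of 11 fell, with a median of -0.09. Genes of the Bearded family, small proteins that Notch signalling switches on, were low in the members. E(spl)m4-BFM was at 2.39 and 2.39 CPM against 214 and 421 CPM, and E(spl)malpha-BFM at 2.39 and 14.3 against 133 and 262 CPM. Ocho was at 2.39 and 3.71 against 59.1 and 71.9 CPM, and Brd at 0 and 1.06 against 18.5 and 122 CPM. E(spl)m4-BFM was at only 41.9 and 38.3 CPM in all other kept cells, so this contrast owes much to its high level in the wider tll stage. Of 28 S genes 23 fell (median -1.12) and of 10 glycolysis genes 10 fell (median -1.90), while of 81 ribosomal protein genes 1 was called, and rose. B-H1, B-H2 and the laminin gene wb also fell, and CG42342 rose from 88.6 to 330.4 CPM and from 35.2 to 428 CPM.

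**Figure D5:**
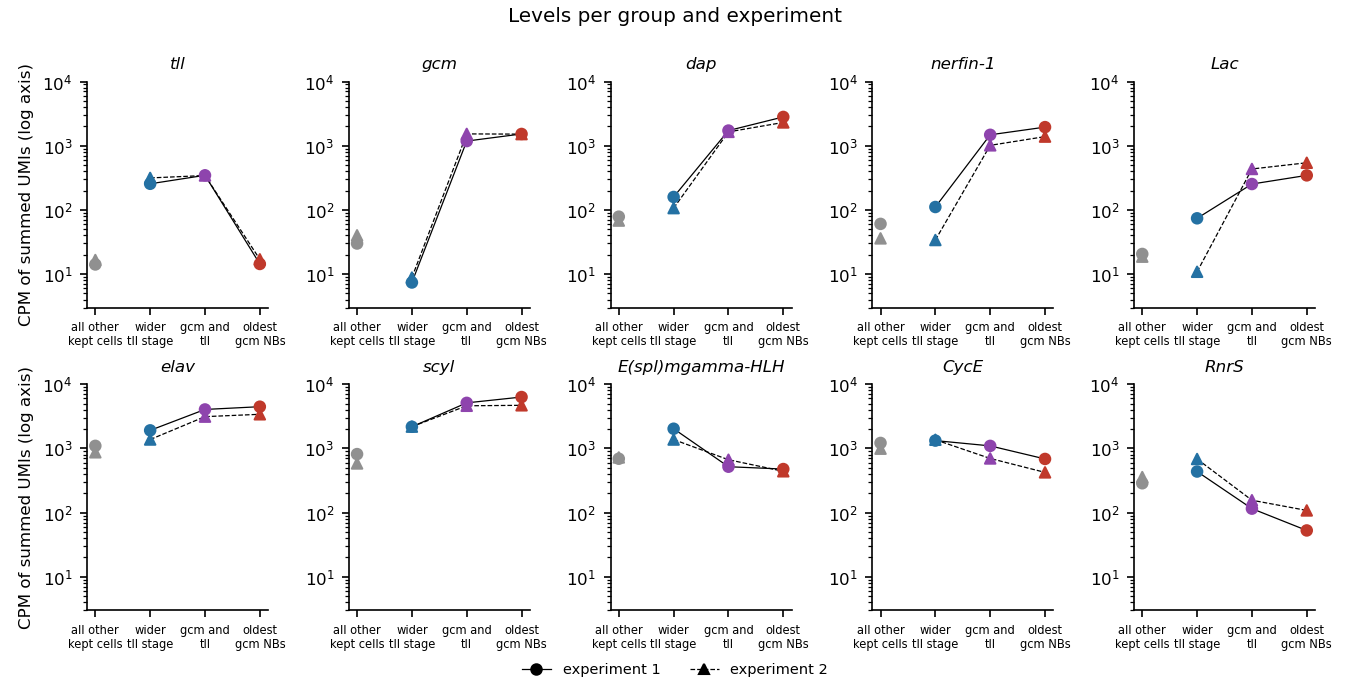
CPM of the UMIs summed per group and experiment (log axis) for 10 genes in all other kept cells, the wider tll stage, cells with gcm and tll, and the oldest gcm NBs; lines join the 3 late groups of an experiment. The levels of tll and gcm follow from the rule. Those of dap, nerfin-1, Lac, elav and scyl are already high in the cells with gcm and tll. CycE and RnrS are lowest in the oldest gcm NBs, but neither was called different from the cells with gcm and tll.

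The cells with gcm and tll were the closest to the members. Only 0.136% of 3680 genes were called higher (5 genes) and 0.109% lower (4 genes) in the oldest gcm NBs, with 121 genes at an unadjusted p under 0.05. DESeq2 called 1 and 0, and without the library block there was none. The level of dap rose further, from 1720.6 to 2806 CPM in experiment 1 and from 1640.2 to 2301 CPM in experiment 2 (0.64 ± 0.10, edgeR adjusted p = 0.00235). The level of nerfin-1, at 1478 and 1012 CPM in the cells with both genes, was not called different (0.49 ± 0.14, adjusted p = 0.327), nor was elav. Argk (arginine kinase) was higher by 0.56 ± 0.09 (adjusted p = 0.00594). Lower were scro, at 563 and 415 CPM against 1027 and 639.8 CPM (adjusted p = 0.00594), SoxN, at 275 and 315 against 620.4 and 453 CPM (adjusted p = 0.0256), the zinc-finger gene noc and the junction gene pyd.

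The remaining 3 calls depended on few cells or differed in size between the experiments. Obp44a, which encodes an odorant-binding protein known from glia, was at 428 against 243 CPM and 498 against 57.8 CPM, but its median over members was 0 CPM in both experiments and single members reached 8963 and 27835 CPM. The fatty acid-binding protein gene fabp was at 314 against 109 CPM and 420.1 against 178 CPM. Without the members holding repo or gcm2 UMIs its level in experiment 2 was 181 CPM and its call was lost. Experiment 1 held 0 such members, so the higher level of fabp there did not rest on them. The other, lncRNA:CR43283, named here after its values were seen since it fell outside the rule for named genes, was at 38.3 against 28.8 CPM in experiment 1 and 487 against 89.8 CPM in experiment 2.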

How the data were processed

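The members, gene lists and comparisons were chosen with earlier results of these data known. The authors made single-cell libraries with 10x Genomics Chromium 3′ version 3 chemistry from 2 experiments and aligned and counted them with Cell Ranger (versions 3.0.1 and 3.1.0 are named in the submitters' processing notes), and deposited, for each library, a matrix of raw counts (UMIs of 17753 genes in each barcode) that was neither normalized nor pooled. Each UMI is a counted molecule, so capture and depth limit low counts, and reads are taken near the 3′ end of a transcript.

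Kept cells had at least 1 dpn UMI, under 10% of UMIs on 38 mitochondrial genes and at least 5000 UMIs, after the 5 deepest cells were removed. No doublet caller was run, and an alternative left out cells above 2 times their library's median. Over all barcodes 9 were shared by the libraries, and 0 among kept cells. UMIs were summed per library and group, since cells are not replicates, and tested in edgeR 4.0.16 (TMM, filterByExpr, quasi-likelihood, Benjamini-Hochberg over all genes tested, R 4.3.3), with a gene called at an adjusted p under 0.05 and gcm and tll left out of counts. The library entered as a block because both groups come from the same library. Gene deviations correlated between groups of a library at 0.210 over 7111 genes in the first fit, and at 0.193 to 0.475 over 3682 genes in the late fit. Each SE is the log2 fold change divided by the square root of the F statistic of the quasi-likelihood test. The spread is shared over genes, so very small p-values are not a measure of certainty, and the value in each experiment is given in their place. Fits were tested on simulated data.

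Genes named in the text were the 10 largest changes in each direction against all other kept cells and the 5 largest in each late comparison, among called genes that reached 50 CPM where they were higher and had 1 direction in both experiments, and members of the lists as examples. S and G2/M genes are those of the study. Phases were scored in scanpy 1.11.5 after thinning each cell to 5000 UMIs and scaling genes within each library, a step chosen after unscaled scores put most cells in 1 phase. Of the symbols in the lists, 5 were not matched in the files. In the later annotation at hand fabp, ham and wb overlap another gene on their own strand, so that reads may be shared. Coordinates, promoters and proteins were not used here. Alternatives were DESeq2 1.42.0, other scaling, filters, thresholds and groups of cells, and each library alone.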

Additional observations from a re-analysis of the deposited data

Results flagged for a closer look

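Cells without a dpn UMI had not been kept. In experiment 2, 11 of the 519 such cells with under 10% mitochondrial UMIs (2.12%, exact 95% interval 1.06 to 3.76%) met the same limits for gcm and tll and are listed because no comparison used them. A count of 0 would allow a share of up to 0.578%, a bar that a few cells pass, so this says only that such cells were found. Their summed levels were 1206 CPM of gcm, 1788 CPM of dap, 1105 CPM of nerfin-1 and 3458 CPM of elav, with 194 CPM of mira and 0 UMIs of repo. In experiment 1 it was 1 of 148 cells. The median depth of the 11 cells of experiment 2 was 9825 UMIs, and whether dpn was missed at this depth or lost was not tested.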

How the results depend on the processing

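Against all other kept cells the direction and call of all 20 named genes held in every alternative fit, while counts moved. Genes higher and lower numbered 658 and 673 with DESeq2, 333 and 624 with no replicate block, 704 and 740 with thinned cells, and 680 and 918 without cells above 2 times the median depth. Against tll-stage cells they were 33 and 24 with DESeq2, 15 and 3 with no replicate block, 34 and 28 with thinned cells, and 331 and 421 with the wider tll stage, chosen after seeing the data; 15 were lower among G2/M cells. There ham and Claspin turned to 1.61 and 0.84, with 1 tll-stage cell in experiment 1. Against cells with gcm and tll they were 1 and 0 with DESeq2, 0 and 0 with no replicate block, 3 and 1 with gcm at 1000 CPM or more, 21 and 10 with no filter on low counts, and 9 and 7 with tll at 0 UMIs; 0 were higher among G2/M cells and 2 lower in the fit with the wider tll stage. The cause of these moves was not tested, except that thinned cells and the G2/M cells hold fewer UMIs. The share of members was 1.32% in experiment 1 with a mitochondrial limit of 20% (30 of 2269 cells) and 7.84% in experiment 2 with gcm at 1000 CPM or more. With 1 library left out no spread is left, so counts without a replicate could not be given. The 29 members of experiment 1 hold 417737 UMIs and those of experiment 2 hold 3770713, so genes of few UMIs are measured mainly in experiment 2.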

Other observations

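RNA-binding and nuclear factors that change with age in other fly NBs were measured as well. Of 5 tested, Imp, chinmo and Syp were lower and mamo higher in the oldest gcm NBs than in all other kept cells. Syp was at 3976 against 5686 CPM and 2789 against 4599 CPM, and mamo, a zinc-finger gene that chinmo regulates in mushroom body neurons, at 3201 against 992 CPM and 2184 against 606 CPM. Of 13 genes of the ecdysone response and the Mediator complex 7 rose and 2 fell, beside 17.0% and 22.9% of all genes tested, but 4 rose with DESeq2, 3 without the deepest cells and 0 with no library block in edgeR. Among them was Eip93F, an ecdysone-induced factor, at 1068 against 576 CPM and 636 against 309 CPM. Against the tll-stage cells Eip93F rose by 1.64 ± 0.17 on the log2 scale and mamo by 0.96 ± 0.17.

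Of 9 cell death genes 2 were called higher: rpr (Reaper), at 7.18 against 3.32 CPM and 13.3 against 3.20 CPM, and the caspase gene Dcp-1, at 28.7 against 22.8 CPM and 41.4 against 24.0 CPM, both scarce. This share is near the 17.0% of all genes, and DESeq2, thinned cells and the cells without the deepest ones gave 0 called higher. Of 22 adhesion and guidance genes 8 rose and 10 fell, among them the Netrin receptor gene fra, at 589 against 165 CPM and 360 against 110 CPM, and the teneurin gene Ten-a, at 45.5 against 338 CPM and 24.1 against 285 CPM.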
